A study of Sus scrofa with 27 samples.

Results

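The transcripts of 9 genes were followed in mural granulosa cells, the cells that line the wall of an ovarian follicle. They are DPP10, 4 other genes of its family (DPP6, DPP4, DPP8 and DPP9; FAP, of the same family, was kept in a list of related peptidases), the voltage-gated potassium channel genes KCND2 and KCND3, and the channel-interacting protein genes KCNIP1 and KCNIP4. DPP10 was chosen by its measured difference between the diets, among the largest falls in feed-restricted sows, and the others were named as its relatives or as parts of the same channels. All 9 had an identifier among the 35670 in the count files, and all 9 reached the mean count of 5 that left 11384 named genes for testing. The difference of DPP10 between the diets is therefore given as a description with no test.

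The sows were wild-type crossbreds of Large White and Norwegian Landrace in their first parity. During the last 2 weeks of lactation, full-fed (FF) sows got 6.5 kg of feed per day and restricted (RES) sows 3.25 kg, after which all were fed alike until the ovaries were taken on day 2 after weaning. The libraries came from 13 FF and 14 RES sows, 1 library per sow, cut by laser from the largest healthy follicle. The RES sows were those that lost most body weight and the FF sows those that lost least within a larger trial, and follicle size differed between the groups in the study, so diet, weight loss and follicle size cannot be told apart. The sample notes say that FF sow 9 was left out for low RNA integrity, whereas in the RNA quality table of the study the lowest integrity is that of FF sow 10, which is among the 13 libraries. FF sow 10 was the highest FF sow for DPP6, DPP9 and KCND3 and the lowest for DPP8 and KCNIP4, and values without it are given for the genes where it matters most. The total count was 12299220 to 16021200 in FF libraries and 12942198 to 18120922 in RES libraries. All values below are counts divided by the size factor of the library, called normalized read counts.

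Kv4 channels, built from KCND subunits, open and shut quickly when a membrane is depolarised, and are known best from neurons and heart muscle. Their subunits carry 2 kinds of partners: the KCNIP proteins, which bind calcium inside the cell, and DPP6 or DPP10, single-pass membrane proteins that bring the channel to the surface and speed its opening. DPP4, DPP8 and DPP9 are peptidases that cut dipeptides from the amino end of proteins, whereas DPP6 and DPP10 have the same fold but lack the serine that does the cutting.

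That difference can be read in the pig gene models. The coding stretch around the catalytic serine of DPP4 is shown for the 5 DPP genes, read 5′ to 3′ from the RefSeq annotation of Sscrofa11.1. Capitals mark the serine codon of DPP4 and the codon aligned with it, at bases 22 to 24 counted from the first base shown.
DPP4: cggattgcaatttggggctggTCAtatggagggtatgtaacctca
DPP8: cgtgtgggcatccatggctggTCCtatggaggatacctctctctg
DPP9: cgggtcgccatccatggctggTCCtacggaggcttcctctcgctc
DPP6: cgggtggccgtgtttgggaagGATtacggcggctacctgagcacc
DPP10: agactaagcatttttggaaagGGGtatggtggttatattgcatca
DPP8 and DPP9 kept a serine codon, with A24C relative to DPP4. DPP6 differed at all 3 bases (T22G, C23A and A24T) and carried an aspartate codon. DPP10 also differed at all 3 (T22G, C23G and A24G) and carried a glycine codon. Over the 45 bases, 26 matched DPP4 in DPP8 and in DPP9, 24 in DPP10 and 23 in DPP6. The stretch lay at chr15:68677372-68677392 and chr15:68676799-68676822 on the minus strand for DPP4, with an exon junction after base 21. It lay at chr15:21988850-21988870 and chr15:22002234-22002257 on the plus strand for DPP10, and at chr18:3155794-3155814 and chr18:3153007-3153030 on the minus strand for DPP6, with the junction at the same base. In DPP8 (chr1:163457603-163457647, minus strand) and DPP9 (chr2:74173651-74173695, plus strand) the stretch lay within 1 exon. The transcript counts below cannot show peptidase activity.

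The labelled cell type was checked against marker lists. The 10 measured granulosa markers summed to 78043 to 128584 normalized read counts in FF sows and 78808 to 156459 in RES sows. FOXL2, on the same list, was not analysed here. The 8 theca markers summed to 2455 to 13672 in FF and 1162 to 12698 in RES sows, and the 7 measured endothelial markers to 1176 to 2383 and 830 to 2346. Markers of neurons, where Kv4 complexes are best known, summed to 547 to 3202 in FF and 435 to 1852 in RES sows, mostly from MAP2, whereas SNAP25 and ELAVL3 were at 0 in every library. RES sow 7 stood apart: it had the highest summed theca, endothelial, immune and stroma markers of the RES group and its lowest sum of cell cycle genes. Its theca markers summed to 12698 against a RES median of 2909, and its cell cycle genes to 10729.8 against a RES median of 34023. Results that rest on it are given with and without it. Libraries of 1 group correlated with each other at r = 0.91 to 0.98 across genes, which are not independent replicates.

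DPP10 (chr15:21365700-22011989, plus strand, 28 exons) was lower in RES sows. In FF sows its normalized read count had a lowest value of 168, a median of 358 and a highest value of 862. In RES sows the lowest was 14.0, the median 67.0 and the highest 247. The means were 391 ± 196 (SD, n = 13) and 99.02 ± 80.2 (SD, n = 14), a 3.95-fold difference. The FF median was above each of the 14 RES sows, and the lowest FF sow above 11 of them. The groups overlapped through RES sows 7, 10 and 8, with 247, 209.6 and 204, and FF sows 2, 10 and 1, with 168, 172 and 230.1. Before scaling, these values rest on 136 to 860 reads in FF sows and 14 to 247 in RES sows. The edgeR log2 fold change, RES against FF, was -2.02 (SE 0.37), -2.20 without RES sow 7 and -2.08 without FF sow 10.

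The log2 falls were ordered among genes called by edgeR with a mean of at least 20 normalized read counts, which restates how DPP10 was chosen. There, the neighbours of DPP10 were IL20RB, a subunit of cytokine receptors, at -2.13 and CCN3, a secreted matrix protein, at -1.91. DPP10 also varied within each diet. Its highest value was 5.13 times its lowest among FF sows and 17.6 times among RES sows, with a coefficient of variation of 50.1% and 81.0%. In bulk samples, fewer cells of a type and less RNA per cell cannot be told apart.

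**Figure D1:**
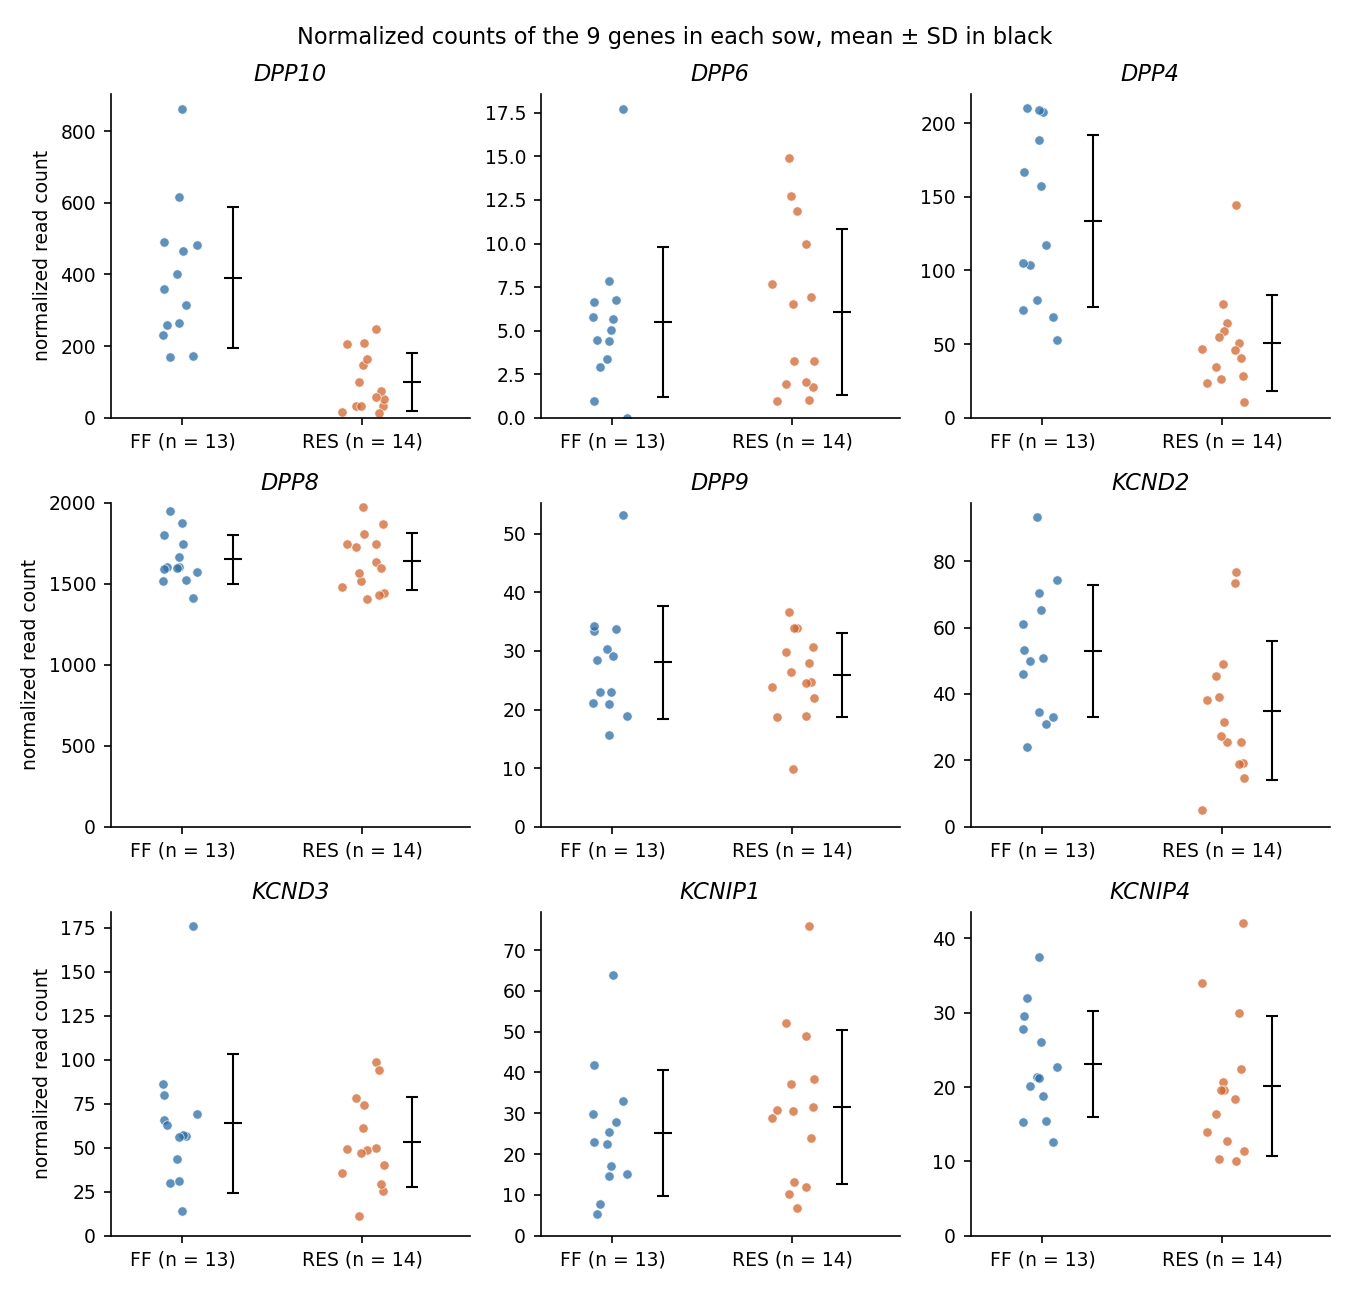
Normalized read counts of the 9 genes (vertical axes, linear, each with its own scale) by diet, with 1 point per sow and the mean ± SD in black beside the points. DPP10 and DPP4 lie mostly lower in RES sows, with medians of 67.0 against 358 and 46.4 against 117, while the points of DPP8 cover the same range in both diets.

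Of the 4 paralogs, DPP4 fell as well and the others did not pass the test. DPP4 (chr15:68661764-68742961, minus strand, 25 exons) is a surface peptidase that trims chemokines and incretin hormones, and is carried by many epithelial, stromal and immune cells. Its normalized read count had a lowest value of 53.01, a median of 117 and a highest value of 210.2 in FF sows. In RES sows the lowest was 10.6, the median 46.4 and the highest 145. Of the RES sows, 13 lay below the FF median and 9 below the lowest FF sow, so the groups overlapped more than for DPP10. FF sows had a mean of 134 ± 58.5 (SD, n = 13), and RES sows a mean of 50.5 ± 32.5 (SD, n = 14). The fall passed the edgeR test, at -1.44 on the log2 scale (SE 0.29, adjusted p = 0.00194). RES sow 7 was the highest of its group for DPP4, as for DPP10. Without that sow the log2 fold change was -1.67 (edgeR adjusted p = 0.000224), and without FF sow 10 it was -1.50 (edgeR adjusted p = 0.00156). An exon of DPP4 overlaps one of LOC110257119 on the plus strand. The libraries kept the strand but the counting did not use it, so reads of that overlap cannot be assigned to 1 of the genes.

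DPP6 (chr18:3148479-3905845, minus strand), the other non-cutting member and the nearest relative of DPP10 in its role, was barely detected. Its normalized read count was 0 to 17.7 in FF sows, with a median of 5.01, and 0.933 to 14.9 in RES sows, with a median of 4.91. The groups overlapped over nearly their whole range. The log2 fold change was 0.11 (SE 0.42, edgeR adjusted p = 0.90), and 0.38 without FF sow 10 (edgeR adjusted p = 0.55). Its mean count of 5.81 lay just above the limit for testing. In FF sow 3 it had 0 counts, which allows up to 3 counts or 3.79 normalized read counts, for counting error only.

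DPP8 and DPP9 are peptidases of the cell interior that hold inflammasome sensors in check. DPP8 (chr1:163446890-163517434, minus strand) was the steadiest of the 9 genes, with a coefficient of variation of 9.26% in FF and 10.8% in RES sows. Its normalized read count was 1412 to 1947 in FF sows, with a median of 1602, and 1404 to 1973 in RES sows, with a median of 1615. The log2 fold change was -0.05 (SE 0.06, edgeR adjusted p = 0.63). DPP9 (chr2:74134520-74179740, plus strand) had 15.6 to 53.2 normalized read counts in FF sows, with a median of 28.4, and 9.81 to 36.7 in RES sows, with a median of 25.6. Its log2 fold change was -0.17 (SE 0.18, edgeR adjusted p = 0.57), and -0.050 without FF sow 10 (edgeR adjusted p = 0.86). The ranges of the diets overlapped almost entirely for DPP8, and between 15.6 and 36.7 for DPP9.

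KCND2 and KCND3 encode the pore of Kv4 channels. KCND2 (chr18:26139457-26624210, minus strand, 6 exons) had 23.9 to 93.3 normalized read counts in FF sows, with a median of 50.7. In RES sows it had 5.11 to 76.9, with a median of 29.5. Of the RES sows, 12 lay below the FF median and 4 below the lowest FF sow. The mean was 52.8 ± 19.9 (SD, n = 13) against 35.0 ± 20.8 (SD, n = 14). The log2 fold change of -0.63 (SE 0.27) did not pass (edgeR adjusted p = 0.12). Its unadjusted edgeR p of 0.028 is under 0.05, but so was that of 30.0% of all genes tested. Without RES sow 7, the highest RES sow for KCND2, the log2 fold change was -0.78 and passed (edgeR adjusted p = 0.0346). KCND3 (chr4:108394687-108621514, plus strand) had 14.0 to 176 normalized read counts in FF sows, with a median of 57.3, and 11.5 to 98.8 in RES sows, with a median of 48.9. The highest value was that of FF sow 10. The log2 fold change was -0.31 (SE 0.29, edgeR adjusted p = 0.51), and -0.069 without that sow (edgeR adjusted p = 0.88).

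The channel-interacting protein genes did not pass either. KCNIP1 (chr16:53272652-53694974, minus strand) had 5.32 to 63.9 normalized read counts in FF sows, with a median of 22.9, and 6.79 to 75.9 in RES sows, with a median of 30.7. Over all libraries it was the member with the highest log2 fold change, 0.27 (SE 0.32, edgeR adjusted p = 0.61), and 10 RES sows lay above the FF median. With each library left out in turn it had 0.11 to 0.48. Without FF sow 10 it had 0.32, below the 0.38 of DPP6. An exon of KCNIP1 overlaps one of LOC102158145 on the plus strand, so its counts are uncertain in the same way as those of DPP4. KCNIP4 (chr8:15211916-16346358, minus strand) had 12.7 to 37.5 normalized read counts in FF sows, with a median of 21.4, and 9.98 to 42.0 in RES sows, with a median of 19.0. Its log2 fold change was -0.24 (SE 0.21, edgeR adjusted p = 0.49).

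Of the 8 members other than DPP10, 1 was called, whereas 14.1% of all 11384 genes tested were called (5.85% lower and 8.29% higher in RES sows). A count of 1 of 8 is near that background. The median log2 fold change of the 8 was -0.20, against -0.02 over all genes tested.

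**Figure D2:**
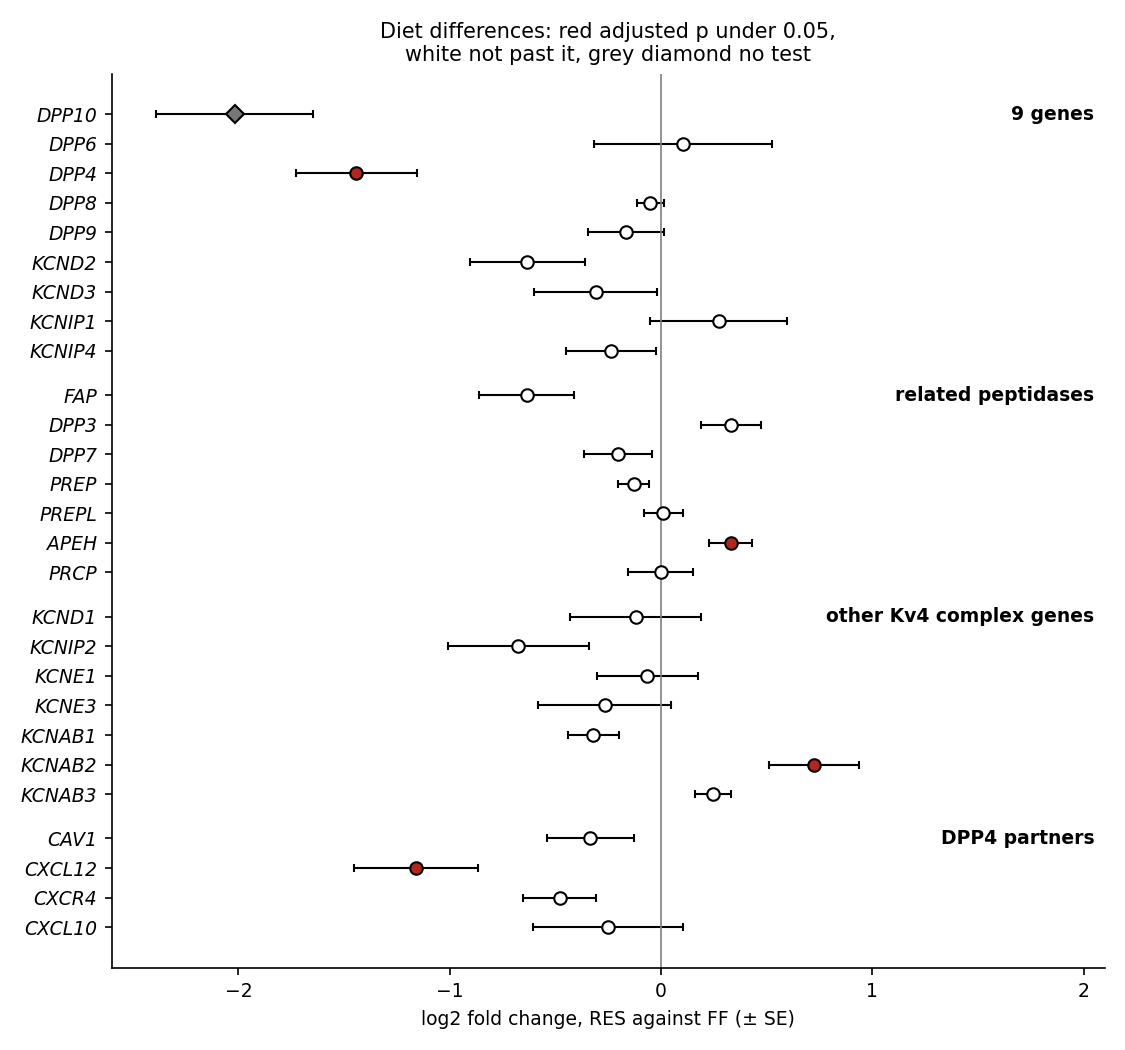
Log2 fold change, RES against FF (horizontal axis), with its SE as the bar, for the 9 genes and for the tested genes of related peptidases, other Kv4 complex genes and DPP4 partners. Red points passed an edgeR adjusted p of 0.05, white points did not, and DPP10, the grey diamond at -2.02, has no test; DPP4 at -1.44 is the red point nearest to it.

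Levels of different genes can be compared only per length, so the normalized read counts were divided by the kilobases of the longest RefSeq transcript. In FF sows DPP8 came first with 226 ± 20.9 per kb (SD, n = 13), followed by DPP10 with 73.8 ± 36.9 and DPP4 with 55.8 ± 24.4. The means of DPP10 and DPP4 lay within their spread of each other, and DPP10 was the higher of the pair in 9 of 13 sows. The Kv4 partners were lower. KCNIP1 had 11.13 ± 6.84 per kb, KCND2 9.49 ± 3.57, KCND3 8.36 ± 5.17 and DPP9 6.74 ± 2.32, and the mean ± SD ranges of these neighbours met. Sow by sow, KCNIP1 was above KCND2 and KCND2 above KCND3 in 7 of 13 sows each, and KCND3 above DPP9 in 8. KCNIP4 had 3.69 ± 1.15 per kb, a range that met that of DPP9 but not that of DPP6 with 1.42 ± 1.11. DPP9 was above KCNIP4, and KCNIP4 above DPP6, in 12 of 13 sows each.

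In RES sows DPP8 remained first with 224 ± 24.2 per kb (SD, n = 14). DPP4 and DPP10 followed with 21.1 ± 13.5 and 18.7 ± 15.1 per kb, and DPP4 was the higher in 10 of 14 sows. KCNIP1 had 13.9 ± 8.35 per kb, within the spread of DPP10, which was the higher of the pair in 7 of 14 sows. Below them came KCND3 with 6.95 ± 3.35, KCND2 with 6.28 ± 3.74, DPP9 with 6.21 ± 1.72, KCNIP4 with 3.21 ± 1.51 and DPP6 with 1.56 ± 1.23 per kb. From DPP4 downward the mean ± SD ranges of neighbours in the order met. The genes were read in the same sows, which these ranges do not use. KCNIP1 was above KCND3 in 11 of 14 sows, DPP9 above KCNIP4 in 13 and KCNIP4 above DPP6 in 10. KCND3 was above KCND2 in 7 and KCND2 above DPP9 in 5. Per length, DPP10 lay above both pore genes, KCND2 and KCND3, in 13 of 13 FF sows and in 10 of 14 RES sows, the exceptions being RES sows 4, 6, 9 and 14.

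**Figure D3:**
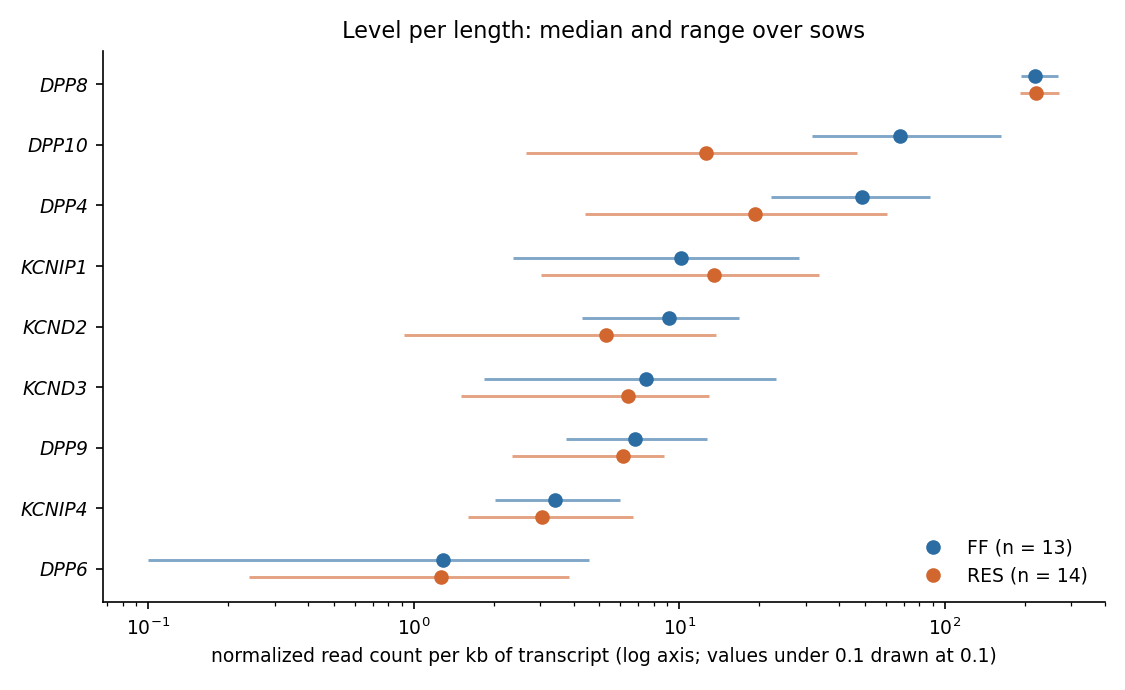
Normalized read count per kb of transcript (horizontal log axis) of the 9 genes, with points for the median and lines for the range over sows of each diet. The lines of DPP10 reach from 31.7 to 163 in FF and from 2.64 to 46.5 in RES sows, while those of DPP8 almost coincide.

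The lists of related genes were described in the same fit. All 7 related peptidases were tested. APEH, which removes acetylated residues from peptides, rose by 0.33 on the log2 scale (SE 0.10, edgeR adjusted p = 0.0275), with 12 of 14 RES sows above the FF median. It lost the call without RES sow 1 or 3 (edgeR adjusted p = 0.0532 and 0.0506). FAP, the closest relative of DPP4 and a marker of activated fibroblasts, had a log2 fold change of -0.64 (SE 0.22) and did not pass (edgeR adjusted p = 0.0543). DESeq2 and limma's voom called FAP lower and APEH higher, and limma's voom also called DPP3 higher. Of the 7, edgeR called 1, against 14.1% of all genes tested, and 3 had an unadjusted edgeR p under 0.05, against 30.0% of all genes. The median log2 fold change of the list was -0.0021.

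Of the 11 other Kv4 complex genes, 7 were tested. KCNAB2, a cytoplasmic beta subunit of potassium channels, rose by 0.73 on the log2 scale (SE 0.21, edgeR adjusted p = 0.0231), from a mean of 24.1 to 41.1 normalized read counts, and had 0.49 without RES sows 3 and 5, the lowest in read quality, when it was not called (edgeR adjusted p = 0.0819). DESeq2 called KCNAB2 and KCNAB3 higher, and limma's voom called KCNAB2 higher and KCNAB1 lower. KCNAB1 and KCNAB3 are genes of the same beta subunit family. KCNAB3 had a log2 fold change of 0.25 (edgeR adjusted p = 0.0512), with 13 of 14 RES sows above the FF median, and KCNAB1 had -0.32 (edgeR adjusted p = 0.0696), with 12 of 14 below it. The remaining Kv4 pore gene KCND1 and the interacting protein gene KCNIP2 were low, with 8.66 ± 4.17 and 6.96 ± 3.74 normalized read counts in FF sows (SD, n = 13). KCNIP2 had a log2 fold change of -0.68 (SE 0.33) that did not pass (edgeR adjusted p = 0.17). Of the 37 other voltage-gated potassium channel genes, 9 were tested and 0 were called by edgeR or DESeq2. Of the 9, 1 had an unadjusted edgeR p under 0.05, against 30.0% of all genes tested. From the same 9, limma's voom called 3 lower, and it called 3193 of all 11384 genes in either direction. Of the 42 other potassium channel genes, 14 were tested and edgeR called 1: KCNK1, a two-pore-domain leak channel, rose by 1.07 (SE 0.32, edgeR adjusted p = 0.024, and 0.0531 without RES sow 1). DESeq2 called KCNK1 and KCNT2, a sodium-activated channel, higher, and limma's voom called both higher and KCNN3, a calcium-activated channel, lower. KCNT2 had a log2 fold change of 0.63 (edgeR adjusted p = 0.0575), with 13 of 14 RES sows above the FF median, and KCNN3 had -0.54 (edgeR adjusted p = 0.0836). In all, edgeR called 2 of the 30 tested channel and subunit genes outside the members, both higher in RES sows. That is not above the background of all genes tested, of which 14.1% were called and 8.29% were called higher. The median log2 fold changes of the 3 lists were -0.12, -0.26 and -0.21.

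Of the 16 partners and substrates of DPP4, 4 were tested. CXCL12, a chemokine that DPP4 cuts, fell by 1.161 on the log2 scale (SE 0.29, edgeR adjusted p = 0.00905), from a mean of 139 ± 62.5 (SD, n = 13) to 63.9 ± 45.4 normalized read counts (SD, n = 14). CXCR4, its receptor, had a log2 fold change of -0.48 that did not pass with edgeR (adjusted p = 0.0579) but was called by DESeq2 and limma's voom. CXCL10 and CAV1 had -0.25 and -0.33 and were called by none of the 3 tools. The genes GIP and NPY were at 0 in every library. Of the DPP8 and DPP9 partners, FLNA was the 1 tested, with a log2 fold change of 0.10, and it was not called.

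Markers of other cells moved with the diet beside DPP10 and DPP4. Of the endothelial markers, edgeR called 3 of 7 lower, namely CLDN5 (-0.80), EMCN (-0.78) and CDH5 (-0.56), against 5.85% of all genes. DESeq2 called 4 lower (with TEK) and limma's voom 5 (with TEK and KDR). Those tools called more of all genes in either direction, 1935 and 3193, against 1610 with edgeR. TIE1, on the same list, had 0.40 (edgeR adjusted p = 0.23), with 11 of 14 RES sows above the FF median, and PECAM1 had -0.12 (edgeR adjusted p = 0.68). Of the theca markers, edgeR called 1 of 8 lower, CYP11A1 at -1.28, a steroidogenic enzyme that granulosa cells also express. CYP17A1, which makes androgens in theca cells, had -1.11 (edgeR adjusted p = 0.0523) and was called by DESeq2 and limma's voom, and INSL3, at -0.56 (edgeR adjusted p = 0.11), by limma's voom only. Of the stroma and smooth muscle markers, edgeR and DESeq2 called 1 of 8 lower, PDGFRB at -0.62 (edgeR adjusted p = 0.0402), a call kept in 12 of the 27 edgeR fits without 1 library, and limma's voom called 3 (with MYH11 and PDGFRA). None of the 3 immune, 6 neuronal, 10 granulosa and 2 oocyte markers tested were called by edgeR or DESeq2. At an unadjusted edgeR p under 0.05 were the neuronal markers ELAVL4 (0.89) and SYP (-0.71) and the granulosa marker INHBB (0.66), against 30.0% of all genes. Those 3 were called by limma's voom. The study also reported INHBB as higher in RES sows. All 16 cell cycle genes tested had a log2 fold change above 0, with a median of 1.02. Of the 16, edgeR called 14 higher, against 8.29% of all genes. The part of these cells in the lower DPP10 and DPP4 counts was not tested.

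Within the RES group, 7 of the 24 values of r between the summed lists and DPP10, DPP4 or KCND2 passed the adjustment, 12 had a permutation p under 0.05, and 0 of the 24 values of rho passed. The summed theca markers correlated with DPP10 at Pearson's r = 0.63 (permutation p = 0.00525, 0.042 after adjustment over 48 correlations, n = 14) and Spearman's rho = 0.55 (permutation p = 0.0432, 0.26 after adjustment). Leaving out RES sows 7 and 10, the farthest from the DPP10 median, gave r = 0.19, so the relation rests on them. The sum of cell cycle genes correlated with DPP10 at Pearson's r = -0.70 (permutation p = 0.00417, 0.04 after adjustment) and Spearman's rho = -0.65 (permutation p = 0.0132, 0.15 after adjustment), and r was -0.44 without those sows. DPP4 correlated with the same sum at Pearson's r = -0.72 (permutation p = 0.00372, 0.04 after adjustment) and Spearman's rho = -0.72 (permutation p = 0.00486, 0.15 after adjustment), and r was -0.53 without its 2 farthest sows. With the theca sum DPP4 had r = 0.76 but rho = 0.01, and r = 0.11 without its 2 farthest sows. KCND2 correlated with the endothelial sum at Pearson's r = 0.84 (permutation p = 9.0e-05, 0.00432 after adjustment) and Spearman's rho = 0.69 (permutation p = 0.00839, 0.15 after adjustment), and at r = 0.62 without its 2 farthest sows. With the stroma sum KCND2 had Pearson's r = 0.78 (permutation p = 0.00103, 0.0247 after adjustment) and Spearman's rho = 0.65 (permutation p = 0.0142, 0.15 after adjustment), and r = 0.55 without those sows. With the immune sum it had Pearson's r = 0.68 (permutation p = 0.00663, 0.0455 after adjustment) and Spearman's rho = 0.52 (permutation p = 0.06, 0.26 after adjustment), and r = 0.30 without them, so that relation rests on them. DPP4 and the stroma sum had Pearson's r = 0.76 (permutation p = 0.00191, 0.0306 after adjustment) and Spearman's rho = 0.56 (permutation p = 0.0373, 0.26 after adjustment), and r = 0.47 without the 2 sows farthest for DPP4. DPP10 and the endothelial sum had Pearson's r = 0.58 (permutation p = 0.0189, 0.10 after adjustment) and Spearman's rho = 0.53 (permutation p = 0.057, 0.26 after adjustment), and r = 0.31 without RES sows 7 and 10. DPP4 had r = 0.76 with the endothelial and 0.78 with the immune sum, and KCND2 r = 0.59 with the theca sum, none passing the adjustment, and without the 2 farthest sows r was 0.29, 0.21 and 0.22. DPP10 and the neuronal sum had Pearson's r = 0.50 (permutation p = 0.0661, 0.21 after adjustment) and Spearman's rho = 0.64 (permutation p = 0.0155, 0.15 after adjustment), and r = 0.74 without RES sows 7 and 10. In FF sows 1 of the 24 values of r had a permutation p under 0.05, that of KCND2 with the endothelial sum (r = 0.57, permutation p = 0.041, adjusted p = 0.16). Whether the correlations differ between the diets was not tested.

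Whether the members varied together with DPP10 was asked within each diet, because the libraries form 2 groups of DPP10 levels. Of the 16 correlations, 0 passed the Benjamini-Hochberg adjustment and 3 had a permutation p under 0.05, all in RES sows. KCNIP1 was lower where DPP10 was higher, at Pearson's r = -0.65 (permutation p = 0.0102, 0.0852 after adjustment, n = 14) and Spearman's rho = -0.67 (permutation p = 0.00958, 0.15 after adjustment). DPP4 was higher where DPP10 was higher, at Pearson's r = 0.62 (permutation p = 0.0106, 0.0852 after adjustment) and Spearman's rho = 0.45 (permutation p = 0.11, 0.42 after adjustment). KCNIP4 had Pearson's r = -0.55 (permutation p = 0.0365, 0.19 after adjustment) and Spearman's rho = -0.60 (permutation p = 0.0279, 0.17 after adjustment). KCND2 had Pearson's r = 0.49 (permutation p = 0.0754, 0.30 after adjustment) and Spearman's rho = 0.58 (permutation p = 0.031, 0.17 after adjustment).

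Without RES sows 7 and 10, r was -0.55 for KCNIP1, 0.29 for DPP4, -0.54 for KCNIP4 and 0.31 for KCND2. The relation of DPP4 to DPP10 thus rests on those sows. Within the upper and lower sequencing quality groups of RES sows, described next, r was -0.63 and -0.57 for KCNIP1, 0.57 and 0.65 for DPP4, -0.40 and -0.22 for KCNIP4, and 0.33 and 0.30 for KCND2 (n = 7 each). In FF sows the 8 values of r lay between -0.45 for KCND3 and 0.43 for DPP8, and none had a permutation p under 0.05 (n = 13). KCNIP1 there had r = 0.04 and KCNIP4 had r = -0.03.

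**Figure D4:**
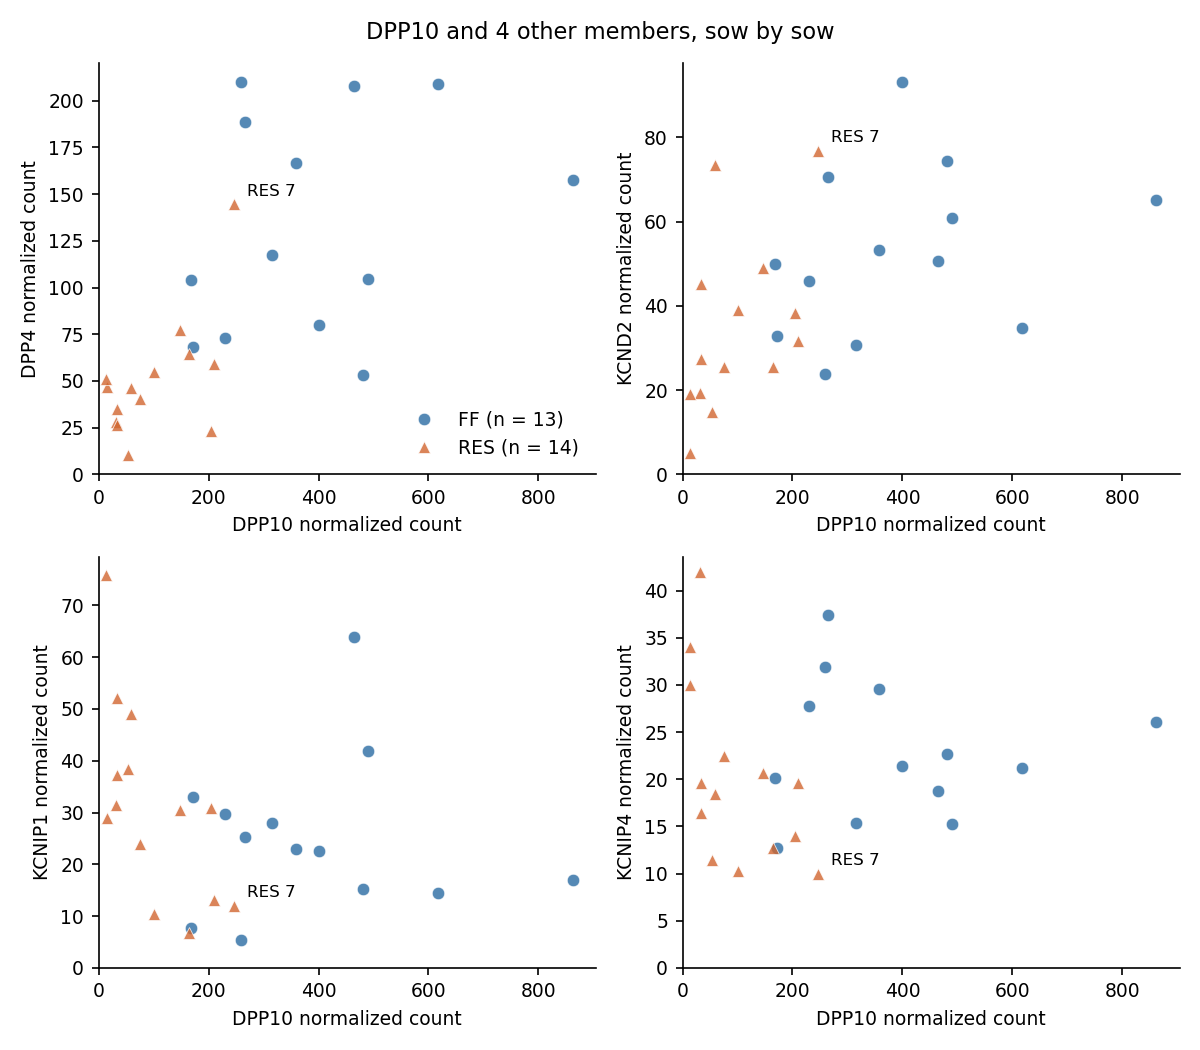
Normalized read count of DPP4, KCND2, KCNIP1 and KCNIP4 (vertical axes) against that of DPP10 (horizontal axes), with 1 point per sow, circles for FF and triangles for RES. RES sow 7 holds the highest DPP10 value of its group at 247 and the highest DPP4 value at 145, and KCNIP1 lies lower in RES sows with more DPP10 (r = -0.65).

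In the study's read statistics the share of well-called bases has a gap, which splits the libraries into an upper and a lower group, with 7 FF and 7 RES sows in the upper and 6 FF and 7 RES sows in the lower group. No source used here says what the gap stands for. Within the lower group, RES sows 3 and 5 lie apart below all other libraries, by a wider gap, so values are also given without them. In the upper group DPP10 had 168 to 862 normalized read counts in FF sows and 14.0 to 209.6 in RES sows, and 6 of 7 RES sows lay below the lowest FF sow. In the lower group it had 172 to 489.7 in FF and 53.05 to 247 in RES sows, and 5 of 7 RES sows lay below the lowest FF sow. The log2 fold change was -2.95 (SE 0.55) in the upper and -1.30 (SE 0.35) in the lower group, -1.17 there without RES sows 3 and 5. Over all libraries without RES sows 3 and 5 it was -2.04 (SE 0.40). Because DPP10 was chosen by this contrast, no test of the difference between these changes is given.

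DPP4 had a log2 fold change of -1.84 (SE 0.28, edgeR adjusted p = 0.00637) in the upper group, where 17.8% of genes were called. Over all libraries without RES sows 3 and 5 it had -1.38 (edgeR adjusted p = 0.00331). In the lower group its log2 fold change was -1.08 (SE 0.46, edgeR adjusted p = 0.36), and -0.86 without those sows (edgeR adjusted p = 0.41), and 1 gene (0.00878%) was called in the whole lower group, with 1385 genes at an unadjusted p under 0.05. KCND2 passed in the upper group, at -1.18 (SE 0.32, edgeR adjusted p = 0.0221), and had -0.21 (SE 0.37, edgeR adjusted p = 0.87) in the lower group, or 0.096 without RES sows 3 and 5 (edgeR adjusted p = 0.91). KCNIP1 had a log2 fold change of 0.96 (SE 0.34, edgeR adjusted p = 0.0636) in the upper and -0.41 (SE 0.48, edgeR adjusted p = 0.79) in the lower group. DPP9 had 0.17 in the upper and -0.52 in the lower group, KCND3 0.15 and -0.72, and KCNIP4 0.063 and -0.66. None of these 6 values passed with edgeR, and that of KCNIP4 in the lower group had an unadjusted p of 0.0321 (adjusted p = 0.36). None of the 8 genes other than DPP10 passed the edgeR interaction test of diet with quality group, with adjusted p from 0.38 to 0.97 and an unadjusted p under 0.05 for KCNIP1.

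**Figure D5:**
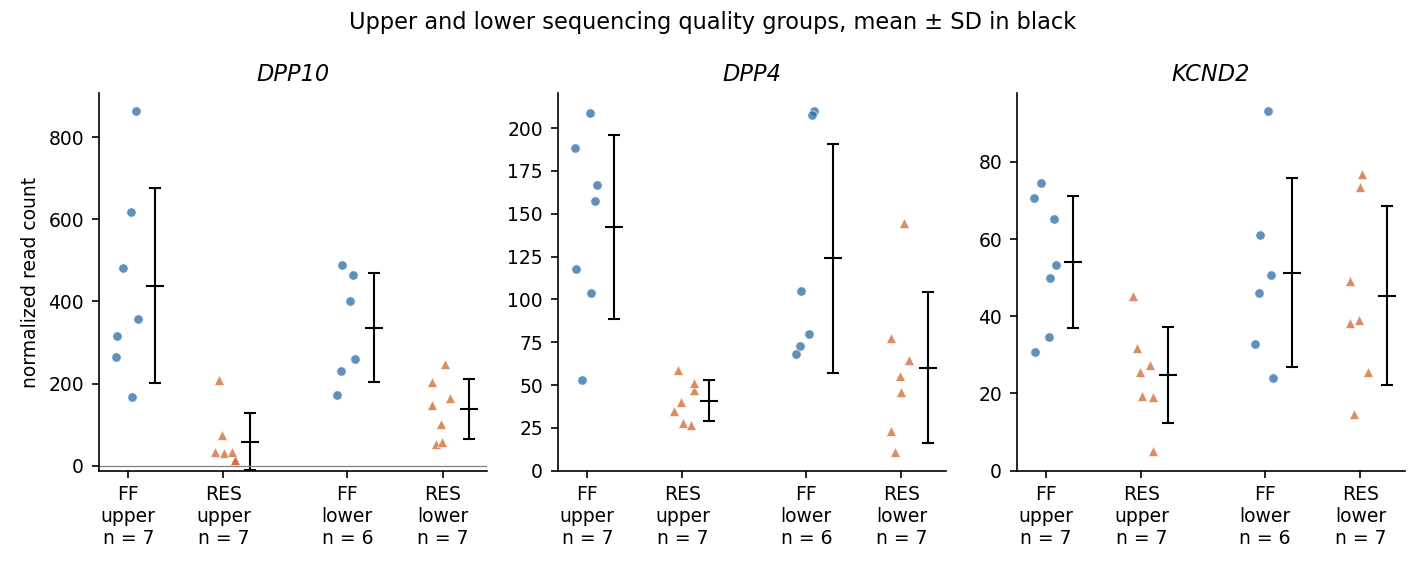
Normalized read counts of DPP10, DPP4 and KCND2 by diet within the upper and lower sequencing quality groups, with 1 point per sow and the mean ± SD in black. The RES sows of the upper group have a mean of 58.8 for DPP10 and 24.7 for KCND2, those of the lower group 139 and 45.3.

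The genes whose sow-to-sow pattern was most like that of DPP10 were ranked after the mean of each diet was removed. The measure was Pearson's r of log2(normalized read count + 1) over the 27 libraries, for 9512 other genes with a mean of at least 20 normalized read counts, and it is given with no test. The highest were RGN, a calcium-binding protein also called regucalcin, at r = 0.79, MFHAS1 at 0.76, AGBL1 at 0.75, ZNF365 at 0.74 and OCEL1 at 0.74. Among the lowest were SIPA1L2 at -0.75, AGAP1 at -0.71 and TANC1 at -0.71.

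RGN was lower in RES sows, with 32.0 ± 24.6 (SD, n = 14) against 74.5 ± 34.1 normalized read counts (SD, n = 13), a log2 fold change of -1.26 (edgeR adjusted p = 0.0196). SIPA1L2 rose by 0.75 (edgeR adjusted p = 0.0244), and the other 6 of these genes were not called. The r of RGN with DPP10 was 0.94 within RES and 0.21 within FF sows, and that of ZNF365 0.93 and 0.67, and neither difference between the diets was tested.

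Among the members, KCND2 was the most like DPP10 at r = 0.56, above 98.4% of the 9512 genes. DPP4 followed at 0.35 and DPP8 at 0.34, each above 88% of genes. KCND3 at -0.08, DPP9 at -0.27, KCNIP1 at -0.41 and KCNIP4 at -0.47 lay below the median of all genes of -0.01. The 1st and 99th percentiles of all genes were -0.56 and 0.61, and no member lay outside them. DPP6 was too low to be ranked.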

How the data were processed

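Laser-captured mural granulosa cells of 27 sows were sequenced. According to the methods and the submitters' processing notes, the authors aligned reads to Sscrofa11.1 with HISAT2 2.2.1, kept unique alignments, removed PCR copies with UMI-tools 1.1.4 and counted read pairs on exons with featureCounts 1.6.2, without using strand. The deposited values are raw counts.

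Members and lists were chosen with earlier results of these data known. Identifiers were joined to symbols, 38 small RNA symbols left out, and genes with a mean count of at least 5 tested (edgeR 4.0.16, TMM, quasi-likelihood test, Benjamini-Hochberg adjustment over 11384 genes, called under 0.05). Normalized read counts used DESeq2 1.42.0 size factors over 17467 identifiers. Each SE of an edgeR log2 fold change is its size divided by the square root of the quasi-likelihood F statistic, and for DPP10 is a description only. Correlations used 100000 permutations, two-sided. Those with marker sums were added after values were seen. On data simulated for RES against FF with 11384 genes, 200 of them changed, 84.2% of log2 changes of 1 and 98.0% of log2 changes of 2 were recovered. Of the calls, 3.19% were false. Genes were drawn independently there, and 14.1% of genes were called in the real data, so this is not the error rate of the real calls. Lengths, positions and sequences are from RefSeq, while the counts used Ensembl gene models. The serine site was found by its protein motif in the translated DPP4 exons, whose RefSeq model is not in 1 open frame, and by local alignment in the others. Named were the members, up to 5 called genes of each list, 5 genes at each end of the likeness ranking and the neighbours of DPP10 among falls of called genes. Of the likeness ranking, 2 genes are not reported here. Alternatives were DESeq2's size factors and test, voom of limma 3.58.1, other filters, a replicate block, the quality group and each library left out. Every sow is 1 animal, so p-values measure the spread between sows.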

Additional observations from a re-analysis of the deposited data

How the results depend on the processing

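DPP10 stayed lower in RES sows under all 8 other settings, with log2 fold changes of -2.50 to -1.98, within both quality groups, and with each library left out in turn (-2.20 to -1.87). These refits reuse the libraries and the contrast by which DPP10 was chosen, so they describe its fall and cannot test it. DPP4 stayed called by edgeR, DESeq2 and limma in all 8 settings (-1.66 to -1.41, adjusted p 3.66e-05 to 0.00825) and in all 27 fits without 1 library (-1.67 to -1.35), but had -1.08 within the lower quality group (adjusted p = 0.36). KCND2 was called in 1 of 8 settings, limma's voom (-0.72, adjusted p = 0.0332), and in 1 of 27 fits without a library, that without RES sow 7. The count of changed genes was 1610, and 3193 with limma's voom and sample quality weights, and lay between 1182 and 2350 without 1 library. With the replicate number as a block, 1084 genes changed and DPP4 had -1.54 (adjusted p = 0.00825), but the 13 shared numbers do not pair the sows: correlations of their deviations were -0.22 to 0.30, 1 of 13 was over 0.1 and 0 sows correlated best with their own number. KCNK1 (adjusted p = 0.0521) and APEH (adjusted p = 0.0547) were not called with the block. KCNK1 was also not called without RES sow 1 (adjusted p = 0.0531), APEH not without RES sow 1 or 3 (0.0532 and 0.0506), and PDGFRB was called in 12 of 27 such fits and 5 of 8 settings. Within the upper quality group edgeR did not call CLDN5 (-0.84, adjusted p = 0.0673), CYP11A1 (-1.36, adjusted p = 0.0604) or PDGFRB (-0.56, adjusted p = 0.0797). EMCN and CDH5 kept their calls there.

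Some directions turned. DPP6 had -0.012, -0.017 and -0.046 without RES sows 5, 12 and 13, in a range of -0.046 to 0.38, and was not tested by edgeR's filterByExpr. DPP9 had 0.17 within the upper and -0.52 within the lower quality group, KCND3 0.15 and -0.72, KCNIP4 0.063 and -0.66, and KCNIP1 0.96 and -0.41. RES sows 3 and 5, lowest in read quality, were left out in a setting chosen after seeing the data: within the lower group DPP4 then had -0.86 and was not called, DPP8 0.077, KCND2 0.096, KCNIP1 -0.32 and KCNAB2 -0.081, and over all libraries 1465 genes were called, but not APEH, KCNAB2 and PDGFRB (adjusted p = 0.061, 0.0819 and 0.064). The r of KCNIP4 with DPP10 in FF sows was 0.057 on the log2 scale, and that of KCND3 in RES sows -0.12 without the 2 farthest sows. The cause was not tested. By adjusted p, 0 of 16 correlations passed under any of the 5 alternatives. Of the 10 genes most and least like DPP10, 8 were shared with TMM-scaled counts and 7 with Spearman's rho. Without length, 6 of 9 members kept their place in the order of levels in FF sows and 4 of 9 in RES sows. Depth limits DPP6, at a mean count of 5.81, more than any other member.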
